A study of Homo sapiens with 4 samples.

Results

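Transcripts of 7 collagen chain genes, COL1A1, COL5A1, COL6A1, COL6A2, COL12A1, COL11A1 and COL16A1, were examined by qRT-PCR in HEK293 cells, among 184 target genes measured on the same plates. They were listed by gene name with earlier results of these data known, and 5 further collagen genes on the panel serve only for comparison. HEK293 cells are a human line, established long ago from embryonic kidney. The 2 HEK293-PRL-1 samples came from cells stably transfected with pcDNA4-PRL-1, which overexpress the protein tyrosine phosphatase PRL-1 (PTP4A1), and the 2 HEK293-vector samples from cells stably transfected with the empty pcDNA4 vector. Both were biological replicates grown in DMEM with fetal bovine serum, and neither the labels nor the methods used here state whether each line is 1 clone. PTP4A1 itself was at a Ct of 40 in all 4 samples, so the overexpression was not measured in these wells, and no marker of the line was examined to check its label.

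Collagens are trimers of alpha chains wound into a triple helix and secreted into the extracellular matrix. COL1A1 encodes the alpha 1 chain of type I collagen, the main fibril of bone, skin and tendon, and COL5A1 the alpha 1 chain of type V, which co-assembles with type I and regulates how fibrils start and how wide they grow. COL11A1 encodes a chain of type XI, the related minor fibrillar collagen of cartilage. COL6A1 and COL6A2 encode chains of the same type VI trimer, which forms beaded microfilaments around cells. COL12A1 and COL16A1 encode chains of the fibril-associated collagens XII and XVI, which attach to fibrils and do not form them alone.

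The measurement is the threshold cycle (Ct), the cycle at which fluorescence of the TaqMan probe passes a set level, so that a lower Ct means more template and a Ct of 40 means not detected. Of the 7 chains, 5 were below a Ct of 40 in all 4 samples. COL11A1 and COL16A1 were at 40 in every sample, were not tested, and have no fold change here. Relative to 18S, 4 chains were lower in HEK293-PRL-1 (COL5A1, COL1A1, COL6A1 and COL6A2, by 2.16-fold to 4.12-fold) and COL12A1 was higher, by 24.6-fold. All 5 passed an adjusted p of 0.05 with limma over 174 assays, where 7.47% of assays were called lower and 58.6% higher. The groups did not overlap in any of the 5, while 14.4% of all assays lay apart in the lower direction and 69% in the higher. The 7 genes were chosen with earlier results of these data known, so that these counts describe them and do not test the choice. In these bulk samples, fewer cells that express a gene and less of its RNA per cell cannot be told apart.

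**Figure D1:**
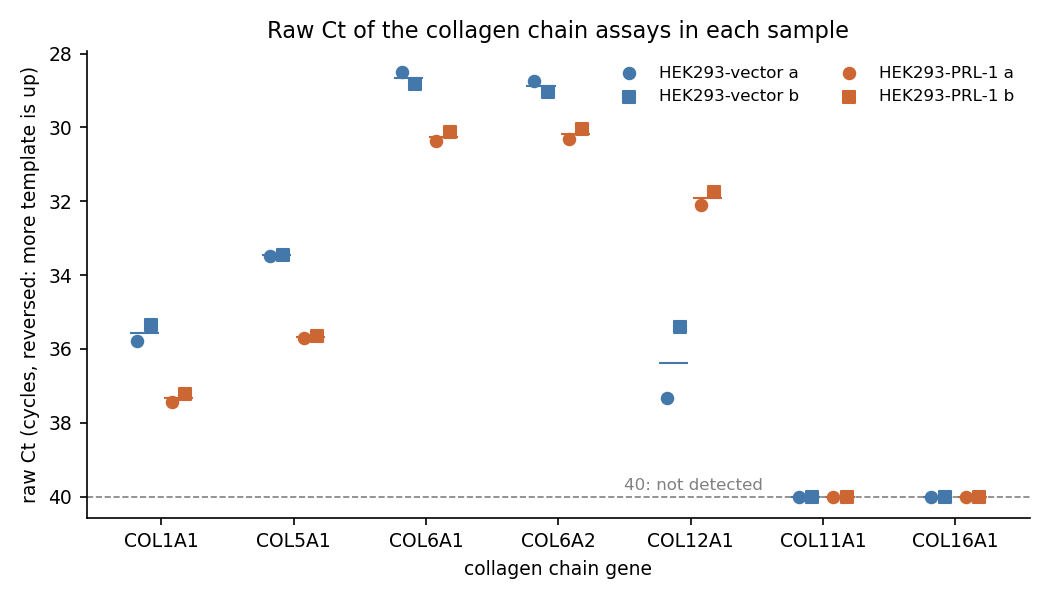
Raw Ct in cycles (vertical axis, reversed so that more template is higher) of the 7 collagen chain assays in each of the 4 samples; points are single samples, short lines are group means and the dashed line is a Ct of 40. The HEK293-PRL-1 points lie below the HEK293-vector points in COL1A1, COL5A1, COL6A1 and COL6A2 and above them in COL12A1, and all points of COL11A1 and COL16A1 lie on the line.

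Of the series as a whole, 174 of the 184 target assays were below 40 in at least 1 sample and 165 in all. The calls ran mostly one way, with 102 assays higher and 13 lower relative to 18S and a median log2 fold change of 1.34 over all 174. This split depended on the reference, at 86 higher and 38 lower with GAPDH, 22 and 82 with B2M, and 45 and 90 with the median Ct of the 165 assays found in every sample. Mean raw Ct of the reference wells was 13.9 in HEK293-vector and 14.1 in HEK293-PRL-1 for 18S, 21.3 and 20.9 for GAPDH, and 28.2 and 26.0 for B2M. Over 165 assays the median of sample a minus sample b on the log2 scale was −0.41 in HEK293-vector and −0.26 in HEK293-PRL-1. The letters a and b are those of the deposited columns. With 2 samples per group an exact permutation test cannot go below p = 0.33, and the limma p-values rest on a variance shared across assays. The p-values and intervals measure spread between replicates, and differences between independently transfected lines were not measured.

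The 250 bases upstream of the start are shown for COL5A1 and COL6A2, which fell, and for COL12A1, which rose, so that the chains that moved apart can be read side by side. They are RefSeq sequences of build GRCh38.p14, written 5′ to 3′ on the strand of the gene, and 5 of the 7 genes had a promoter in the table used. COL5A1 lies at chr9:134641553-134641802 (plus strand, the first of its start sites), COL6A2 at chr21:46097862-46098111 (plus strand) and COL12A1 at chr6:75206054-75206303 (minus strand). Capitals mark matches to GGGCGG (the GC box), CCAAT or TATAAA on either strand.
COL5A1: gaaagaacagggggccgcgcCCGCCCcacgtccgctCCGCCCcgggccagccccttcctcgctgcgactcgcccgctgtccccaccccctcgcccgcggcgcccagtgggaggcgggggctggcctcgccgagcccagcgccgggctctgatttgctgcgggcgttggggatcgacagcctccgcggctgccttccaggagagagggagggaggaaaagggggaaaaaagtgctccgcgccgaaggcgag
COL6A2: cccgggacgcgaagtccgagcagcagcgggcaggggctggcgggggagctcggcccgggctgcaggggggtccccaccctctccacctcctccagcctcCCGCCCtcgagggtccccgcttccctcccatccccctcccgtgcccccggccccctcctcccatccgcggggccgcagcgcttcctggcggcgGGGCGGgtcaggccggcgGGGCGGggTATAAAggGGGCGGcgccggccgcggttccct
COL12A1: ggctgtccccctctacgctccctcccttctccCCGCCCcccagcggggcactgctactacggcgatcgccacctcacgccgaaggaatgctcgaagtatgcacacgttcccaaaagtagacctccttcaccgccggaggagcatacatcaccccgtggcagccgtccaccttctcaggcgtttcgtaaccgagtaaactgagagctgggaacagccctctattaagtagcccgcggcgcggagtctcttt
Matches were counted over 300 bases, from 250 before to 50 after the start, with overlapping matches kept. GGGCGG was found 4 times for COL6A2 and 2 times each for COL5A1 and COL12A1, and in 45% of all 35114 promoters. TATAAA was found for COL6A2 alone of these 3, where it begins 32 bases before the start between a pair of GC boxes, and in 11.5% of all promoters. CCAAT was found in none of the 3 and in 34.6% of all promoters. These are descriptions of letters and were not related to the change in expression.

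Among the fibrillar collagens, COL5A1 (Hs00609088_m1) fell most. In HEK293-vector its raw Ct was 33.5 in sample a and 33.4 in sample b, and in HEK293-PRL-1 it was 35.7 and 35.6, so that both groups were tight and lay more than 2 cycles apart. ΔCt, the Ct of the assay minus the mean Ct of the 18S wells of the same sample, averaged 19.5 ± 0.104 cycles (SD, n = 2) for HEK293-vector and 21.6 ± 0.00156 cycles for HEK293-PRL-1 (SD, n = 2). On the log2 scale COL5A1 changed by −2.04 (standard error 0.21, 95% interval −2.60 to −1.48, adjusted p = 0.00174 from limma), a level 4.12-fold lower. It was the 6th lowest of the 174 changes.

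COL1A1 (Hs00164004_m1), the partner fibril chain, was detected later in both groups. Raw Ct was 35.8 and 35.4 in HEK293-vector and 37.4 and 37.2 in HEK293-PRL-1, without overlap. ΔCt averaged 21.6 ± 0.373 and 23.2 ± 0.108 cycles (SD, n = 2 each). The change was −1.58 on the log2 scale (standard error 0.27, 95% interval −2.32 to −0.85, adjusted p = 0.00663 from limma), which is 3.0-fold lower and the 8th lowest change. Tested by limma without sharing variance across assays, COL1A1 had an adjusted p of 0.0644, and without HEK293-PRL-1 sample a one of 0.0564. COL1A1 was measured on the other plate than the remaining 6 chains, and with 18S of the own plate its change was −1.57.

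The chains of type VI collagen were the most readily detected of the 7, and moved alike. COL6A1 (Hs00242448_m1) crossed the threshold at cycles 28.5 and 28.8 in HEK293-vector and at 30.4 and 30.1 in HEK293-PRL-1. COL6A2 (Hs00365167_m1) did so at 28.7 and 29.0 in HEK293-vector and at 30.3 and 30.04 in HEK293-PRL-1. In both genes the HEK293-PRL-1 samples came at least 1 cycle later than the HEK293-vector samples.

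ΔCt of COL6A1 averaged 14.7 ± 0.149 cycles in HEK293-vector and 16.1 ± 0.128 cycles in HEK293-PRL-1 (SD, n = 2 each). Its change was −1.42 on the log2 scale (standard error 0.22, 95% interval −2.02 to −0.82, adjusted p = 0.00493 from limma), or 2.67-fold lower. ΔCt of COL6A2 averaged 14.9 ± 0.114 and 16.1 ± 0.137 cycles in the same order (SD, n = 2 each). Its change was −1.11 on the log2 scale (standard error 0.22, 95% interval −1.70 to −0.52, adjusted p = 0.0103 from limma), or 2.16-fold lower, the smallest change of the 5. Both genes lie on chromosome 21, where the RefSeq annotation lists no protein-coding gene between them. Without HEK293-PRL-1 sample a the adjusted p from limma was 0.0578 for COL6A1 and 0.109 for COL6A2, and without sample b it was 0.0740 for COL6A2.

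COL12A1 (Hs00189184_m1), the fibril-associated chain that was detected, went the other way. In HEK293-vector its raw Ct was 37.3 in sample a and 35.4 in sample b, whereas in HEK293-PRL-1 it was 32.1 and 31.7. The HEK293-vector samples differed from each other by almost 2 cycles, and both still lay more than 3 cycles later than either HEK293-PRL-1 sample. ΔCt averaged 22.4 ± 1.45 cycles in the former and 17.8 ± 0.208 cycles in the latter (SD, n = 2 each). The change was 4.62 on the log2 scale (standard error 0.72, 95% interval 2.70 to 6.55, adjusted p = 0.00484 from limma), and the fold of 24.6 had an interval of 6.49 to 93.6. It ranked 168th of 174 from the lowest change. The size rests on which HEK293-vector sample is used, at 3.60 on the log2 scale without sample a and 5.65 without sample b. Without sharing variance across assays, COL12A1 had an adjusted p of 0.0834.

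**Figure D2:**
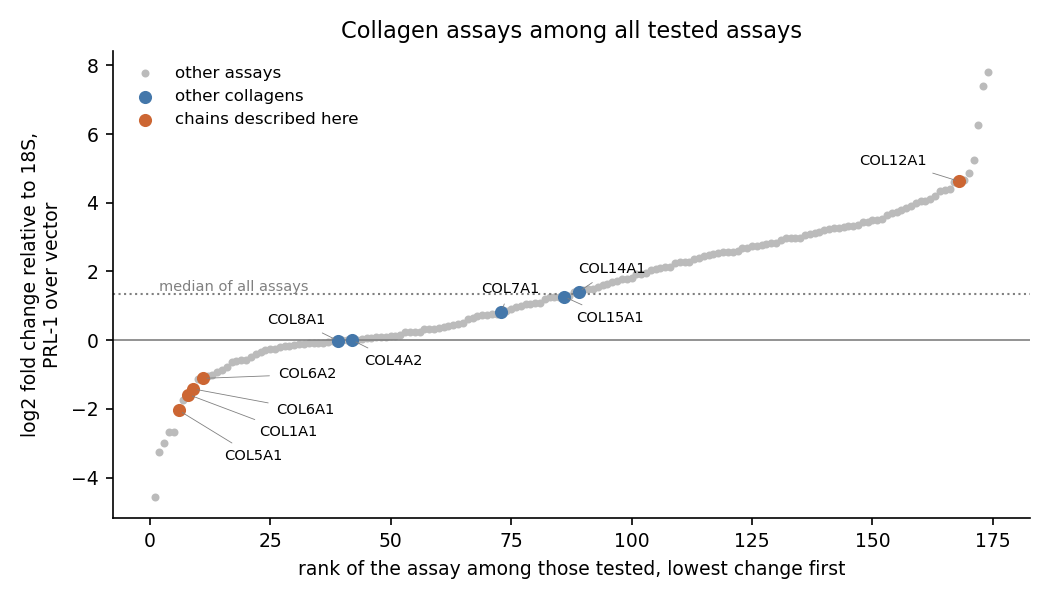
Log2 fold change relative to 18S (vertical axis) of all 174 tested assays against their rank; orange points are the 5 detected chains described here, blue points the 5 other collagens on the panel and the dotted line is the median of 1.34. COL5A1, COL1A1, COL6A1 and COL6A2 hold ranks 6, 8, 9 and 11, and COL12A1 holds rank 168.

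Since every value is set against a reference, the 5 chains were also measured against other ones, which shift all assays by the same amount. The 4 lower chains were lower and COL12A1 was higher under each, and all 5 calls held. Of all assays, 21.8% were called lower with GAPDH and 47.1% with B2M. With the median Ct of the assays found in every sample 51.7% were, beside 7.47% in the main fit. Higher calls made up 49.4%, 12.6% and 25.9% in the same order, beside 58.6%. With GAPDH the log2 fold change was −2.60 for COL5A1, −2.14 for COL1A1, −1.97 for COL6A1, −1.67 for COL6A2 and 4.07 for COL12A1. The falls were larger with B2M, at −4.42 for COL5A1, −3.96 for COL1A1, −3.80 for COL6A1 and −3.49 for COL6A2, and COL12A1 was then higher by 2.24. With B2M limma estimated a single variance for all assays, so that its intervals and calls rest on that shared value and not on the spread of each assay. With the median Ct of those 165 assays, COL5A1 was at −4.23, COL1A1 at −3.77, COL6A1 at −3.61, COL6A2 at −3.30 and COL12A1 at 2.44. The adjusted p of COL12A1 was 0.0126 with this median and 0.00697 with GAPDH. The size of each change thus depended on the reference and its direction did not, for these references. Over all assays the median log2 fold change was 1.34 in the main fit, 0.79 with GAPDH, −1.04 with B2M and −0.85 with that median. Each of these references thus moved every assay down against the main fit. The kept direction of the 4 lower chains followed from this shift and was no test. Only COL12A1 could have turned, and it did not.

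**Figure D3:**
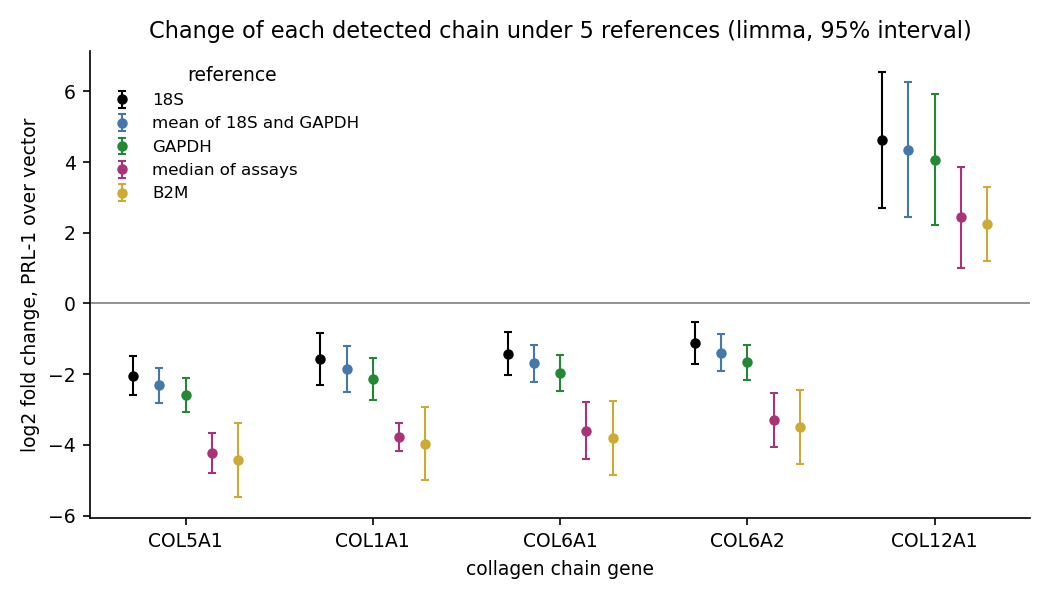
Log2 fold change of HEK293-PRL-1 over HEK293-vector (vertical axis) of the 5 detected chains under 5 references; points are limma estimates from 2 samples per group and bars their 95% intervals. COL5A1 runs from −2.04 with 18S to −4.42 with B2M and COL12A1 from 4.62 to 2.24, and no interval reaches 0.

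A difference in Ct between chains of the same sample needs no reference. COL6A1 minus COL6A2 was −0.25 and −0.20 cycles in the HEK293-vector samples and 0.07 and 0.09 cycles in the HEK293-PRL-1 samples, so that the pair stayed within 0.3 cycles of each other in all 4. The change of COL6A1 against COL6A2 was −0.31 on the log2 scale (95% interval −0.93 to 0.31, adjusted p = 0.267 from limma with COL6A2 as the reference). The groups lay apart in this difference, with an exact permutation p of 0.33.

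COL5A1 minus COL6A2 was 4.73 and 4.42 cycles in HEK293-vector and 5.41 and 5.60 cycles in HEK293-PRL-1. COL5A1 thus fell further than COL6A2, by 0.93 on the log2 scale (interval of the change −1.62 to −0.24, adjusted p = 0.0219 from limma with COL6A2 as the reference). Its difference from COL6A1 had an adjusted p of 0.100, and that from COL1A1 0.117. For the 3 pairs of COL1A1 with COL5A1, COL6A1 and COL6A2 the change lay between −0.47 and 0.46 on the log2 scale, with intervals that included 0.

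COL12A1 minus COL6A1 was 8.84 and 6.59 cycles in HEK293-vector and 1.73 and 1.62 cycles in HEK293-PRL-1. Its change against COL6A1 was 6.04 on the log2 scale (95% interval 4.22 to 7.86, adjusted p = 0.000529 from limma with COL6A1 as the reference), a 65.9-fold shift of the ratio. The same change was 5.74 against COL6A2, 6.21 against COL1A1 and 6.67 against COL5A1, with adjusted p from 9.37e-05 to 0.00173 over the 4 pairs. In all, 10 pairs were compared, each fit adjusted over 173 assays.

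**Figure D4:**
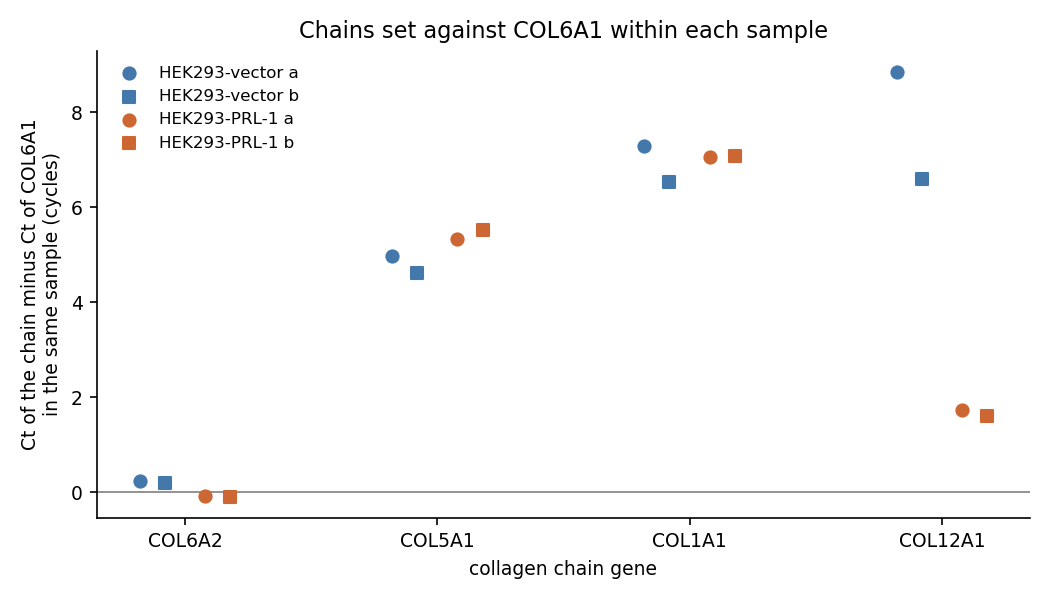
Ct of COL6A2, COL5A1, COL1A1 and COL12A1 minus the Ct of COL6A1 in the same sample (vertical axis, cycles; a higher value is less template against COL6A1); points are single samples. COL12A1 lies at 8.84 and 6.59 cycles in HEK293-vector and at 1.73 and 1.62 in HEK293-PRL-1, while the values of COL6A2 stay near 0 in all samples.

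The order of raw Ct differed between the groups. In HEK293-vector it ran from COL6A1 and COL6A2 to COL5A1, COL1A1 and COL12A1, and the values of COL6A1 and COL6A2 overlapped, as did those of COL1A1 and COL12A1. In HEK293-PRL-1 it ran from COL6A2 and COL6A1, which overlapped, to COL12A1, COL5A1 and COL1A1. Amplification efficiency was not measured for any assay, so that this order is one of cycles and not of transcript levels. The pooled SD between replicates had a median of 0.193 cycles over 65 assays with a mean Ct under 30, where both type VI chains lie. Its median was 0.341 cycles over the 81 assays from 30 to 35, where COL5A1 and COL12A1 lie. Over the 19 assays from 35 to 40, where COL1A1 lies, it was 0.289 cycles. COL12A1 was not typical of its range, with an SD of 1.45 cycles in HEK293-vector and 0.208 cycles in HEK293-PRL-1. Pooled over both groups the SD of COL12A1 was 1.03 cycles, and the highest pooled SD among those 81 assays was 1.04 cycles.

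Closeness to COL5A1, COL6A1 and COL6A2 was the Euclidean distance over the 4 samples of values relative to 18S, centred on their mean. The closest were named among the 160 other assays found in every sample. For COL5A1 they were IGFBP7, an insulin-like growth factor binding protein (distance 0.305), PTP4A3, which encodes PRL-3 (0.674), and PCDH17, a protocadherin (0.793). For COL6A1 they were the integrin subunit genes ITGA3 (0.387) and ITGA7 (0.552), with IGFBP7 between (0.390). For COL6A2 they were ITGA3 (0.138), NFKB2, a subunit of NF-kappaB (0.301), and SHC2, an adaptor protein (0.312). No closest assays were sought for COL1A1 and COL12A1. Among the detected chains, COL6A1 and COL6A2 lay 0.309 apart, and COL12A1 lay 5.94 or more from each of the others. These distances are over 4 samples in 2 groups and describe likeness in these samples only.

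Relative to 18S, the 5 other collagens on the panel were not called lower as the 4 chains were, and this turned with the reference. Both sets were chosen with earlier results of these data known, so that the contrast describes them and does not test the choice. COL14A1, a fibril-associated collagen, was at 30.2 and 29.6 cycles in HEK293-vector and 28.7 and 28.6 in HEK293-PRL-1, and rose by 1.41 relative to 18S (adjusted p = 0.0154 from limma). COL15A1, found near basement membranes, rose by 1.27 (adjusted p = 0.00535) at raw Ct values of 38.0 to 39.2, close to the limit of 40. COL7A1, the anchoring fibril collagen of skin, rose by 0.83 (adjusted p = 0.0357 from limma). All 3 lost the call when either HEK293-PRL-1 sample was left out. COL7A1 also lost it with GAPDH, at 0.28 (adjusted p = 0.338), and without HEK293-vector sample b. With the mean of 18S and GAPDH it was not called either (adjusted p = 0.0983 from limma). COL7A1 (adjusted p = 0.0646) and COL15A1 (0.0567) lost the call in limma with a trended and robust variance. COL7A1 (0.0888) and COL14A1 (0.0922) lost it in limma without sharing variance across assays.

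COL4A2, a chain of the basement membrane network, had a log2 fold change of 0.0039 (95% interval −0.60 to 0.61, adjusted p = 0.992), and COL8A1 of −0.012 (95% interval −1.64 to 1.61, adjusted p = 0.992). So 3 of the 5 were called higher and 0 lower relative to 18S, beside 58.6% of all assays called higher, with a median of 0.83 beside 1.34 over all assays and −1.42 over the 5 detected chains described above. The 5 were all called lower with the median Ct of the 165 assays as the reference, from −2.20 for COL8A1 to −0.78 for COL14A1, where 51.7% of all assays were called lower. With B2M 3 were called lower (COL4A2, COL7A1 and COL8A1), and with GAPDH COL4A2 was, at −0.55 (adjusted p = 0.0425 from limma).

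Around the collagens, 14 of the 19 other matrix assays tested were called higher relative to 18S and 0 lower, beside 58.6% of all assays called higher. The count was 1 higher and 6 lower with B2M and 3 higher and 9 lower with the median Ct of the 165 assays. Without sharing variance across assays it was 5 higher and 0 lower, and without HEK293-PRL-1 sample b it was 8 and 0. The collagen-binding integrin genes all rose, ITGA1 by 3.06 (adjusted p = 0.00201), ITGA2 by 2.67 (adjusted p = 0.00302) and their shared beta subunit ITGB1 by 3.36 (adjusted p = 0.00193), although none of the 3 passed with B2M or without sharing variance across assays. All 6 laminin chains, which build basement membranes, were called higher with log2 fold changes of 1.48 to 2.55, while with B2M 5 of the 6 were below 0 and none was called. Without sharing variance across assays 1 of the 6 was called higher, without HEK293-PRL-1 sample b 4 were, and with the median Ct of the 165 assays LAMB3 was called lower. LAMA2 was at 40 in both HEK293-vector samples, so that its 2.55 is a difference from the limit of detection. SPARC, a matrix protein that binds collagen, had the highest change of all 174 assays, 7.81.

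MMP14, a membrane protease that cleaves fibrillar collagen, rose by 1.49 (adjusted p = 0.00488) and was at −0.89 with B2M. MMP2 (0.23, adjusted p = 0.383), TIMP2, an inhibitor of such proteases (0.25, adjusted p = 0.362), and fibronectin FN1 (−0.10, adjusted p = 0.783) did not pass relative to 18S. Tested by limma without sharing variance across assays, MMP2 was called higher at the same 0.23 (adjusted p = 0.0468). FN1 was called lower with GAPDH, at −0.65 (adjusted p = 0.0334 from limma), with B2M, at −2.48, and with the median Ct of the 165 assays, at −2.29. MMP2 and TIMP2 were also called lower with B2M and with that median. MMP9, the other protease measured, was detected in no sample and was left out of the main test.

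**Figure D5:**
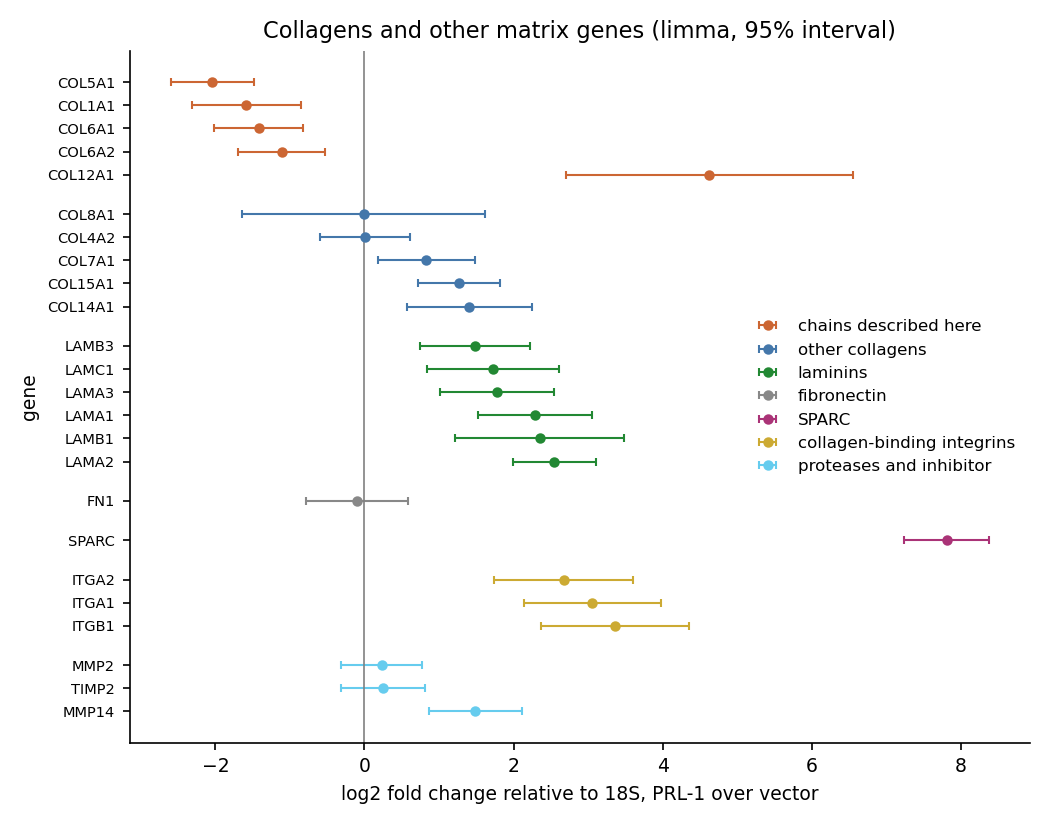
Log2 fold change relative to 18S (horizontal axis) of the detected collagen chains and the other matrix genes, by group; points are limma estimates from 2 samples per group and bars their 95% intervals. The 4 lower chains run from −2.04 to −1.11, and no other matrix gene has an interval wholly below 0. LAMA2 is measured against HEK293-vector samples at a Ct of 40. With B2M as the reference 5 laminins, FN1, MMP14, MMP2, TIMP2 and all 5 other collagens are below 0.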

How the data were processed

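Total RNA of 2 HEK293-PRL-1 and 2 HEK293-vector samples was treated with DNase and reverse transcribed with random hexamers, and cDNA was amplified with TaqMan assays arrayed on 2 plates. Raw Ct values per well were deposited by the authors without normalization, with values of 40 or more set to 40. They also deposited a ratio per assay, their own comparison of the groups, which was not used. Partek 6.12.0531 is listed in the submitters' processing notes. A Ct has no read depth, and the number of samples limits the precision.

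Each Ct was subtracted from the mean Ct of the 2 wells of 18S in the sample. Groups were compared with limma 3.58.1 (R 4.3.3, functions lmFit and eBayes) over the 174 assays below 40 in at least 1 sample, and p-values adjusted by Benjamini-Hochberg were called at 0.05. The variance prior carried 2.46 degrees of freedom beside the 2 residual ones. A doubling per cycle was assumed. Columns name the group and not the replicate number, so samples were not paired. Simulated were 20 sets of the 174 assays with 50 changed. Limma found 2.50% of changes of 1, 86.1% of 2 and 97.5% of 4 on the log2 scale. Of its calls, 19.4%, 3.91% and 3.94% were false in the same order. These sets drew variances from the prior that limma had fitted, with independent noise and random signs of change. Calls in the data ran mostly one way, so that these rates need not hold there. The genes and lists were chosen with earlier results of these data known. Named are the 7 chains, the matrix lists, the references and the 3 nearest assays to COL5A1, COL6A1 and COL6A2. Tried were 5 other references, 4 treatments of undetected or late assays, 2 other variances, each sample left out and a replicate block. Limma for pairs of chains was added after seeing the data. One further reference gene on the plates was not analysed here. RefSeq promoters were used, with 5 of 7 genes matched. Figures were drawn with matplotlib 3.10.9.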

Additional observations from a re-analysis of the deposited data

How the results depend on the processing

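With GAPDH, B2M or the median of the assays as the reference all assays moved down, so the 4 lower chains could not turn. The 5 detected chains kept their direction under all alternatives run, and COL5A1 its call under all 16. Over these alternatives the adjusted p ran from 1.07e-11 to 0.0644 for COL1A1, from 3.63e-14 to 0.0267 for COL5A1, from 6.57e-11 to 0.0578 for COL6A1, from 2.02e-09 to 0.109 for COL6A2 and from 2.62e-26 to 0.0834 for COL12A1. The lowest came with B2M, or for COL12A1 with a HEK293-vector sample left out, where limma gave the assays nearly or wholly 1 common variance, so that calls in these fits rest on that variance. COL1A1 gave no value with a mean Ct under 35. On each assay's own variance COL1A1 (−1.58) and COL12A1 (4.62) were not called, so that 0 chains were called higher, and 42 assays in all. With each sample left out in turn, where the lone sample was taken to vary like the other group, log2 fold changes ran from −1.85 to −1.32 for COL1A1, −2.12 to −1.97 for COL5A1, −1.52 to −1.31 for COL6A1, −1.21 to −1.02 for COL6A2 and 3.60 to 5.65 for COL12A1. The number of chains called lower then ran from 1 to 4, with COL5A1 alone called lower without HEK293-PRL-1 sample a, and 1 chain was called higher each time. Over all assays 7 to 19 were called lower and 74 to 108 higher, with 7 lower without HEK293-PRL-1 sample a.

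The number of assays called lower was 38 with GAPDH, 82 with B2M, 90 with the median of the assays and 20 with the mean of 18S and GAPDH, and the number called higher was 22 with B2M and 45 with the median. By limma with the second chain as the reference, changes passed the threshold for COL12A1 against COL1A1 (6.21), COL5A1 (6.67), COL6A1 (6.04) and COL6A2 (5.74) and for COL5A1 against COL6A2 (−0.93), where the exact test could not. With each sample left out these ran from 5.45 to 6.97, 5.72 to 7.62, 4.91 to 7.17, 4.63 to 6.84 and −1.09 to −0.78 in that order, and from −0.33 to −0.28 for COL6A1 against COL6A2. Upstream of the start alone, COL12A1 held 1 match to GGGCGG.

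Directions of other matrix genes turned with the reference. With B2M log2 fold changes were −2.38 for COL4A2, −1.55 for COL7A1, −0.97 for COL14A1, −1.11 for COL15A1, −0.092 for LAMA1, −0.60 for LAMA3, −0.031 for LAMB1, −0.90 for LAMB3, −0.65 for LAMC1, −2.15 for MMP2, −0.89 for MMP14 and −2.13 for TIMP2. With the median of the assays they were −2.18 for COL4A2, −1.36 for COL7A1, −0.78 for COL14A1, −0.92 for COL15A1, −0.41 for LAMA3, −0.71 for LAMB3, −0.46 for LAMC1, −1.96 for MMP2, −0.70 for MMP14 and −1.94 for TIMP2. With GAPDH they were −0.55 for COL4A2, −0.32 for MMP2 and −0.30 for TIMP2, and with the mean of 18S and GAPDH −0.27, −0.046 and −0.027. COL4A2 was at −0.0065 with 18S of the own plate. With each sample left out COL4A2 ran from −0.14 to 0.15, COL8A1 from −0.73 to 0.71 and FN1 from −0.28 to 0.078. For all of them the cause was not tested.

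A replicate block by the column letters a and b gave 104 assays higher and 13 lower, and changed no call of the 5 chains. It left the change of COL12A1 at 4.62 (adjusted p = 0.00584). The labels do not tie these letters to replicate numbers. Over 165 assays, sample a minus sample b in one group had a rank correlation of 0.0587 with that in the other. A rank correlation does not see an offset common to all assays. The median of that difference was below 0 in both groups, at −0.41 in HEK293-vector and −0.26 in HEK293-PRL-1. Whether samples of the same letter share more than the letter was not settled.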
